A study of Mus musculus with 6 samples.

Results

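The IL-6 family cytokines and receptors examined here were 9 genes: the ligand genes Il6, Lif and Il11, the receptor chain genes Il6st, Il6ra, Osmr and Lifr, the transcription factor gene Stat3 and the feedback inhibitor gene Socs3. They were taken by gene symbol from a count table of 28063 genes, and each symbol had 1 row. The members were selected on earlier results of these same counts, in which Il6 had been seen to be lower in both Malt1 populations than in Vector. The comparisons with Vector therefore describe the members. Counts of calls there are printed beside the share over all genes, and nothing is supported with them. Cells of the E0771 line, a mouse mammary carcinoma line, were sequenced in 6 libraries of 3 populations with 2 libraries each: a vector control (Vector), a population with wild-type Malt1 (Malt1_WT), and one with a Malt1 form called the PD mutant (Malt1_PD), an abbreviation the labels leave unexplained. All 3 populations had been kept with activated CD8 T cells for 12 hours, at 3 effectors for each target, then washed, trypsinised, replated and lysed after 6 hours. A population without T cells was not analysed here, the construct behind the Malt1 forms is not described in the sources used here, and what a Malt1 form did cannot be told apart from other ways in which the populations differ.

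Cytokines of this family signal through a shared receptor chain, gp130, which is the product of Il6st. IL-6 binds its own receptor chain (Il6ra) and then gp130, IL-11 does the same with another receptor chain, and LIF and oncostatin M pair gp130 with the products of Lifr or Osmr. The occupied receptors activate Janus kinases, which phosphorylate STAT3. STAT3 in turn drives Socs3, whose product binds gp130 and the kinases and shuts the signal down. In tumour cells the family is known for autocrine growth signals, and Il6 itself is an NF-kB target whose mRNA is destabilised by Regnase-1, a substrate of the MALT1 protease.

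Total counts ran from 14045390 to 19962014 per library, so 3 counts, the floor used for a gene, equalled 0.150 to 0.214 CPM (counts scaled to library size, with TMM factors). Malt1 itself stood at 23.8 and 31.3 CPM in the Vector replicates, 67.2 and 82.1 CPM with the wild-type form and 106 and 95.7 CPM with the PD form, in the direction of the labels. Of 14 T cell markers looked for, 10 had a row, and together they came to between 0.214 and 0.997 CPM in a library, with 4 to 7 of them at 0 counts. The keratin gene Krt8 (108 to 124 CPM) and Vim (3776 to 4645 CPM) were abundant. The mesenchymal genes Twist1 (116 to 132 CPM) and Zeb1 (59.3 to 84.0 CPM) were also present, while Fn1 (1 to 3 counts) and S100a4 (26 to 42 counts) were low. Of the epithelial genes, Epcam had 110 to 134 counts. Cdh1 (2 to 8 counts), Krt18 (4 to 12 counts), Krt19 (3 to 6 counts) and Krt14 (1 to 23 counts) were low. The listed markers Cdh2 and Krt5 had no row. The difference between replicate 1 and replicate 2 followed gene length in Vector (Spearman rho of -0.67 across 9573 genes, which are not independent replicates) and in Malt1_WT (-0.53), but hardly in Malt1_PD (0.05), with long genes lower in replicate 1. Values with a smooth length trend removed from each library are given where this bears on a member. In these bulk samples, fewer cells of a kind and less RNA per cell cannot be told apart. The labels do not state whether replicate libraries were grown as separate cultures, so spreads and p-values may reflect technical variation only.

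The ligand Il6 (ENSMUSG00000025746.11, chromosome 5, 30013114 to 30019981, plus strand, GRCm38) was the member that differed most between the populations. It stood at 37.7 and 30.5 CPM in Vector replicates 1 and 2, at 21.6 and 18.3 CPM in Malt1_WT, and at 14.2 and 16.5 CPM in Malt1_PD, from 225 to 670 counts a library. Both Vector libraries lay above all 4 libraries with added Malt1, and both Malt1_WT libraries lay above both Malt1_PD libraries. Group means were 34.1 ± 5.12 CPM in Vector, 19.9 ± 2.31 CPM in Malt1_WT and 15.3 ± 1.57 CPM in Malt1_PD (SD, n = 2 each). Fitted over all genes, Il6 was 1.72-fold lower in Malt1_WT than in Vector, a log2 fold change of -0.78 ± 0.15 (SE), and 2.22-fold lower in Malt1_PD, at -1.15 ± 0.15. Il6, at 2428 nt, is short, and removing the length trend brought Vector replicates to 35.3 and 31.2 CPM, with log2 fold changes of -0.74 ± 0.12 and -1.10 ± 0.12.

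LIF, a cytokine that acts through the LIF receptor and gp130, showed a smaller difference, with Malt1_PD as the lowest group. Lif (ENSMUSG00000034394.14, chromosome 11, 4257557 to 4272514, plus strand) stood at 24.3 and 21.2 CPM in Vector, 21.8 and 20.4 CPM in Malt1_WT, then 18.7 and 15.2 CPM in Malt1_PD. The Malt1_WT libraries overlapped the Vector libraries, and the Malt1_PD libraries lay below both other groups. The log2 fold change was -0.11 ± 0.14 (SE) in Malt1_WT against Vector and -0.43 ± 0.14 in Malt1_PD against Vector. The balance between the ligands differed as well: per count of Lif there were 1.55 and 1.44 counts of Il6 in Vector, then 0.990 and 0.897 with the wild-type form, and 0.760 and 1.09 with the PD form. Il6 thus exceeded Lif in counts in both Vector libraries and in 1 of the 4 others.

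Il11 (ENSMUSG00000004371.15, chromosome 7, 4772373 to 4782859, minus strand), the gene of a cytokine that binds its own receptor chain before gp130, was scarce. It had 29 and 34 counts in Vector, 15 and 21 in Malt1_WT, and 29 and 10 in Malt1_PD. The Malt1_PD libraries, at 1.83 and 0.594 CPM, lay on either side of the Malt1_WT libraries, at 1.07 and 1.05 CPM, and the higher of them lay between the Vector libraries, at 1.63 and 1.90 CPM. The exact 95% Poisson intervals of the Malt1_PD counts, which cover counting error only, were 19.4 to 41.6 and 4.80 to 18.4. The log2 fold changes of -0.74 ± 0.50 in Malt1_WT and -0.55 ± 0.49 in Malt1_PD against Vector were no more than 1.5 times their SE. Without Malt1_PD replicate 2 the latter turned to 0.05. A difference of Il11 was not resolved at this depth.

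The sequences before the start sites of Il6 and Lif are shown because these ligands had the clearest values. They are given together with a short stretch before the RefSeq start of Socs3 that holds the STAT match among the members. All are from RefSeq (GRCm38.p6), 5′ to 3′ on the coding strand, and capitals mark the letters of a motif match. The Il6 stretch is chr5:30012864-30013113 (plus strand), the Lif stretch is chr11:4257318-4257556 (plus strand, ending where the first GENCODE exon begins), and the Socs3 stretch is chr11:117969502-117969530 (minus strand). This Socs3 stretch lies inside the GENCODE span of Socs3, which begins farther upstream than the RefSeq start used.
Il6: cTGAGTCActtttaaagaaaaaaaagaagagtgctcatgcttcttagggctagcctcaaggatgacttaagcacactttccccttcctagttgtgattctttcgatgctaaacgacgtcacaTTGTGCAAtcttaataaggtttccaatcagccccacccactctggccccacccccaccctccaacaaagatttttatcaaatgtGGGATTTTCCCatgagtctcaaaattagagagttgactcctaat
Lif: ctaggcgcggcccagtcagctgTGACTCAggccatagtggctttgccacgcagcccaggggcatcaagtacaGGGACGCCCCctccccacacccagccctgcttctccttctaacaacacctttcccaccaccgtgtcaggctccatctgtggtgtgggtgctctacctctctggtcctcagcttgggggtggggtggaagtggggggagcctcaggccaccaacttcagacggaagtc
Socs3: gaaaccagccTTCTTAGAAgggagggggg

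In the 250 bases before each RefSeq start, 6 motifs were searched on both strands. They were NF-kB (GGGA and CC with any 4 bases between them), STAT (TTCNNNGAA), AP-1 (TGANTCA), C/EBP (TTGNGCAA), the CRE (TGACGTCA) and the TATA box (TATAAA). The letters for NF-kB and C/EBP were chosen with the Il6 promoter known, so their presence before Il6 carries no weight. The Il6 stretch held 4 matches: AP-1 at 249 to 243 bases before the start, C/EBP at 128 to 121, and NF-kB on the plus strand at 44 to 35 and on the minus strand at 43 to 34, which overlap. Lif held an AP-1 match at 228 to 222 and an NF-kB match at 178 to 169, and the second of the Il11 starts held an AP-1 match at 98 to 92. An AP-1 match was therefore present before a start of all 3 ligand genes, while the first Il11 start held none. Of the 32851 promoters searched, 6.75% hold one, a share per start and not per gene. Among the 11 starts of the members the STAT match occurred before Socs3 alone, at 154 to 146, and 7.02% of all promoters hold it. NF-kB matches, held by 17.6% of all promoters, also lay before Il6ra, Osmr, both Lifr starts and Socs3. All 250 bases of the Il6ra and of the Osmr window lie in annotated GENCODE exons. So do 173 of the first Il11 window, 77 of the Socs3 window, 13 of the first Lifr window and 11 of the Lif window. The Il6ra window lies outside the GENCODE span of Il6ra, so those exons belong to another gene. The windows of Osmr, Socs3, the second Il11 start and both Lifr starts lie inside the GENCODE spans of these genes. The C/EBP match, held by 2.61%, occurred before Il6 alone among the members. The CRE and TATA letters, held by 1.55% and 12.4%, were in 0 of the 11 windows. Shorter CRE letters were also tried with the Il6 promoter known: GACGTCA, held by 2.78% of promoters, occurs before Il6 alone among the members, and TGACG, held by 17.8%, before Il6 and Il6ra. A match of letters is a description and shows no binding.

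**Figure D1:**
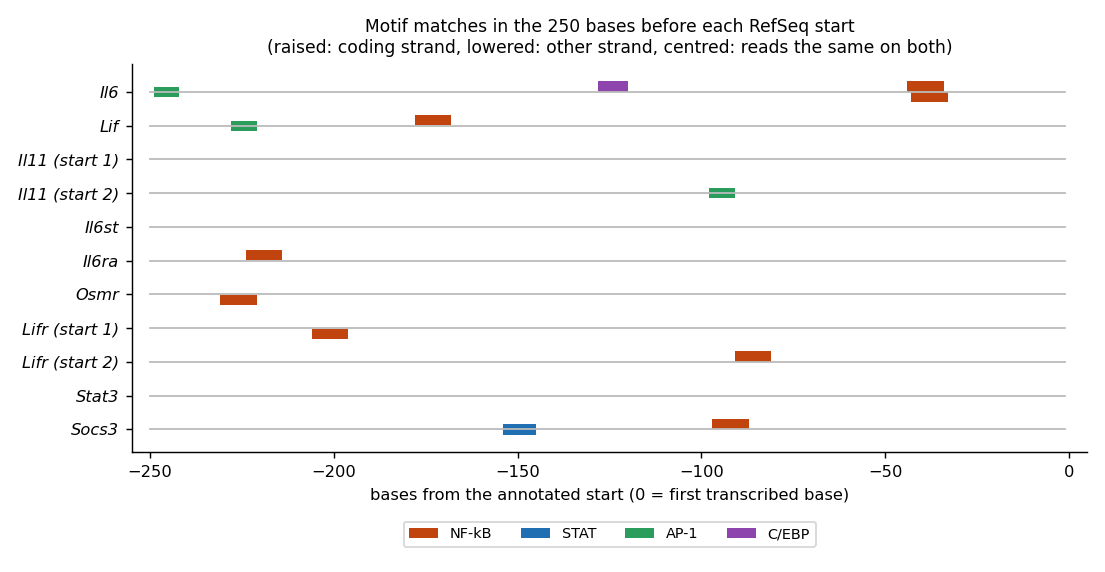
Motif matches (coloured boxes, named in the key) in the 250 bases before each of the 11 RefSeq starts of the 9 members, with distance from the start on the horizontal axis in bases. Il6 carries 4 matches, and the windows of Il6st, Stat3 and the first Il11 start carry 0.

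Of the 3 receptor chain genes that passed the filter, Il6ra lay higher in both forms than in Vector, while Il6st and Osmr overlapped and changed sign with the library left out. Il6ra (ENSMUSG00000027947.11, chromosome 3, 89864059 to 89913196, minus strand), which encodes the IL-6 binding chain, stood at 59.1 and 61.7 CPM in Vector, 70.6 and 73.4 CPM in Malt1_WT, then 69.2 and 68.4 CPM in Malt1_PD. All 4 libraries with added Malt1 lay above both Vector libraries, by log2 fold changes of 0.25 ± 0.08 in Malt1_WT and 0.19 ± 0.08 in Malt1_PD (SE). With the length trend removed, the Vector libraries stood at 63.8 and 57.9 CPM and the others between 67.8 and 72.8 CPM, which left the groups apart. The antisense gene Gm42809 shares 242 nt of exon with Il6ra on the opposite strand, and the strand setting of the counting is unknown here, which makes these counts less certain.

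Il6st (ENSMUSG00000021756.12, chromosome 13, 112464070 to 112510086, plus strand), the gene of gp130, showed a wide gap between replicates of a group. It stood at 101 and 155 CPM in Vector, 123 and 148 CPM in Malt1_WT, then 147 and 143 CPM in Malt1_PD, and the groups overlapped. Replicate 1 was the lower library in Vector and Malt1_WT, where long genes were lower, and Il6st has 11099 nt. With the trend removed the values were 114 and 142 CPM, 128 and 141 CPM, and 144 and 140 CPM. The log2 fold change was 0.08 ± 0.18 in Malt1_WT and 0.18 ± 0.18 in Malt1_PD against Vector, and without Vector replicate 2 these became 0.43 ± 0.11 and 0.52 ± 0.11. Without Vector replicate 1 they turned to -0.19 ± 0.10 and -0.09 ± 0.10, so the direction depended on which Vector library was kept.

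Osmr (ENSMUSG00000022146.12, chromosome 15, 6813577 to 6874969, minus strand), the gene of the oncostatin M receptor chain, overlapped between all groups, at 62.0 and 78.7 CPM in Vector, 65.3 and 81.2 CPM in Malt1_WT, then 79.9 and 74.6 CPM in Malt1_PD. At 12113 nt it too was lower in replicate 1 of Vector and Malt1_WT, and with the trend removed it lay between 68.6 and 77.8 CPM in all 6 libraries. Its log2 fold changes against Vector, 0.06 ± 0.14 and 0.14 ± 0.14, turned to -0.10 and -0.03 without Vector replicate 1. Lifr (ENSMUSG00000054263.12, chromosome 15, 7090614 to 7197489, plus strand), which encodes the LIF receptor chain, was close to absent, with 1 and 5 counts in Vector, 0 and 1 in Malt1_WT, and 2 and 1 in Malt1_PD. It was the 1 member of 9 that did not pass the filter on low counts. In Malt1_WT replicate 1 the count of 0 allows a level of up to 0.214 CPM, for counting error only, and no fold is given for Lifr.

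**Figure D2:**
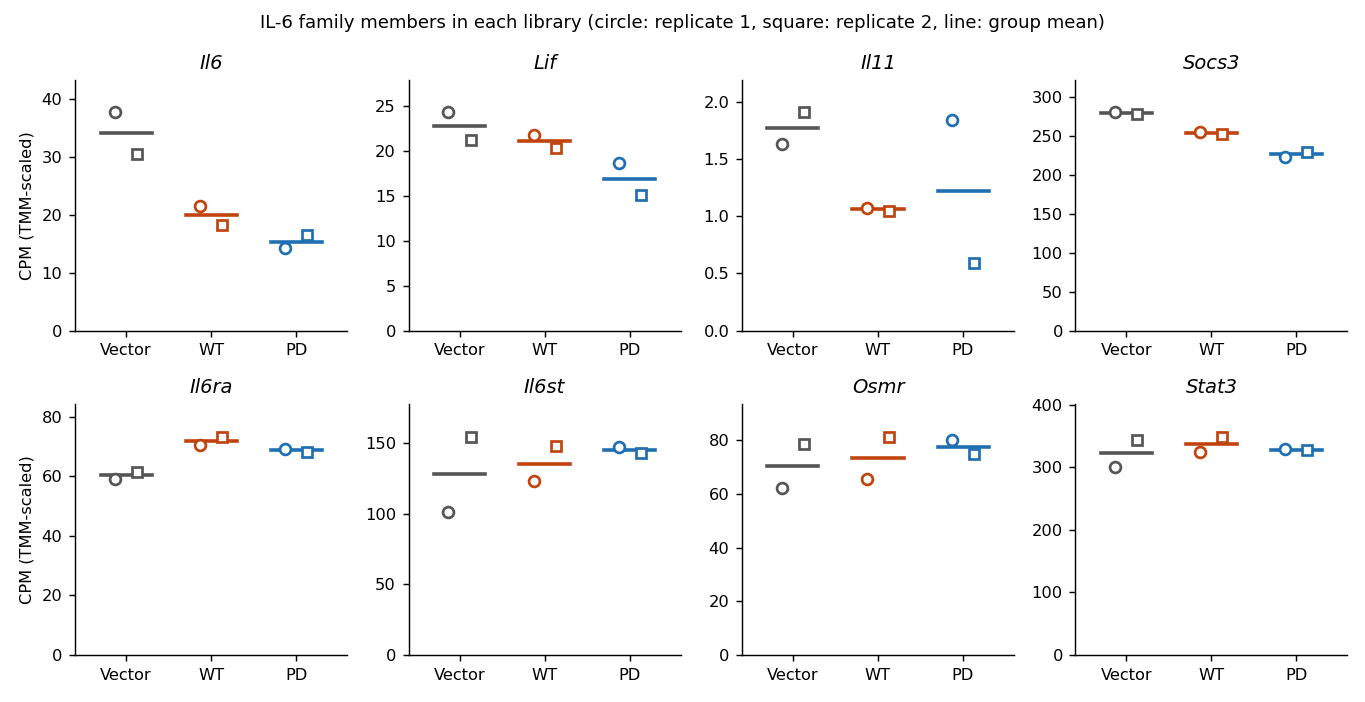
CPM of the 8 members that passed the filter, in each of the 6 libraries (circles replicate 1, squares replicate 2, lines the group mean), with every vertical axis starting at 0. Il6 and Socs3 lie highest in both Vector libraries, Il6ra lies lowest there, and Il6st, Osmr and Stat3 overlap between the groups.

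Stat3 (ENSMUSG00000004040.16, chromosome 11, 100885098 to 100939540, minus strand) was the most counted member and varied least. It stood at 301 and 344 CPM in Vector, 324 and 349 CPM in Malt1_WT, then 329 and 328 CPM in Malt1_PD, with all groups overlapping. With the length trend removed the 6 libraries lay between 320 and 336 CPM. The log2 fold changes were 0.06 ± 0.09 and 0.03 ± 0.09 (SE) in Malt1_WT and Malt1_PD against Vector, and the latter turned to -0.01 ± 0.06 with the trend removed. Without Vector replicate 1 they were -0.03 and -0.07. Stat3 shares 72 nt of exon with its neighbour Stat5a on the opposite strand.

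Socs3 (ENSMUSG00000053113.3, chromosome 11, 117966079 to 117970047, minus strand), the inhibitor that STAT3 drives, was ordered like Il6 with narrower steps. It stood at 280 and 278 CPM in Vector, at 255 and 253 CPM with the wild-type form and at 224 and 229 CPM with the PD form, and no group overlapped another. The log2 fold change was -0.13 ± 0.07 in Malt1_WT and -0.30 ± 0.07 in Malt1_PD against Vector. For each 100 counts of Socs3 there were 13.5 and 10.97 counts of Il6 in Vector, 8.44 and 7.23 in Malt1_WT, and 6.36 and 7.18 in Malt1_PD, so Il6 differed more than Socs3.

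Of the 8 members that passed the filter, edgeR's quasi-likelihood test called 0 at a Benjamini-Hochberg adjusted p under 0.05 in Malt1_WT against Vector, where 0.00681% of the 14675 genes tested were called, and 0 in Malt1_PD against Vector, where the share was also 0.00681%. With both forms pooled against Vector it called 0 as well, beside 0.0273% of all genes (0.0136% higher and 0.0136% lower). In that comparison 2 members lay lower (Il6 and Socs3) and 1 higher (Il6ra) at an unadjusted p under 0.05, beside 5.4% and 4.45% of all genes, and the same members did not overlap, beside 10.8% and 9.74%. At an unadjusted p under 0.05, 1 member lay lower (Il6) and 1 higher (Il6ra) in Malt1_WT, beside 3.8% and 3.3% of all genes, and 3 lay lower (Il6, Lif and Socs3) and 0 higher in Malt1_PD, beside 4.88% and 3.73%. DESeq2 called 1 member, Il6, in each of these 3 comparisons, beside 0.211%, 0.293% and 0.545% of all genes, and limma-voom called 0. With the length trend removed edgeR also called Il6 in all 3, beside 0.375%, 0.593% and 1.4% of all genes. With the replicate number as a block it called 0.0409%, 0.0613% and 0.354% of all genes in these comparisons, with Il6 among them in the second and the third, and with block and length correction together 1.11%, 1.55% and 2.56%. Libraries of the groups did not overlap for 3 members lower (Il6, Il11 and Socs3) and 1 higher (Il6ra) in Malt1_WT, against 17.1% and 15.5% of all genes. In Malt1_PD they did not overlap for 3 lower (Il6, Lif and Socs3) and 1 higher (Il6ra), against 19.7% and 18.4%. The comparisons with Vector share the Vector libraries, and the members were chosen with their values known, so nothing is read from these counts. The median log2 fold change of the 8 members was -0.03 in Malt1_WT and -0.14 in Malt1_PD, beside 0.00 over all genes in both.

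The wild-type and the PD form were compared with each other over the same fit. Il6 was higher in Malt1_WT than in Malt1_PD by 0.37 ± 0.15 on the log2 scale (95% interval 0.02 to 0.73), Lif by 0.32 ± 0.14 (-0.01 to 0.64) and Socs3 by 0.17 ± 0.07 (-0.00 to 0.33, with a lower bound just under 0). None of these passed edgeR's quasi-likelihood test after Benjamini-Hochberg adjustment (adjusted p = 1.00 for each), and 0 of 8 members were called, beside 0.00681% of all genes. DESeq2 and limma-voom also called 0 members, and 1 member, Il6, lay past an unadjusted p of 0.05 as higher in Malt1_WT and 0 as lower, beside 0.838% and 1.08% of all genes. The libraries of these groups did not overlap for 4 members, all higher in Malt1_WT (Il6, Lif, Il6ra and Socs3), against 16.1% of all genes, and for 0 members lower, against 16%. For the receptor genes the 95% intervals of the difference were -0.12 to 0.25 for Il6ra, -0.52 to 0.32 for Il6st and -0.40 to 0.25 for Osmr, and for Stat3 -0.17 to 0.24. Differences of those sizes between the forms are within what the libraries allow.

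**Figure D3:**
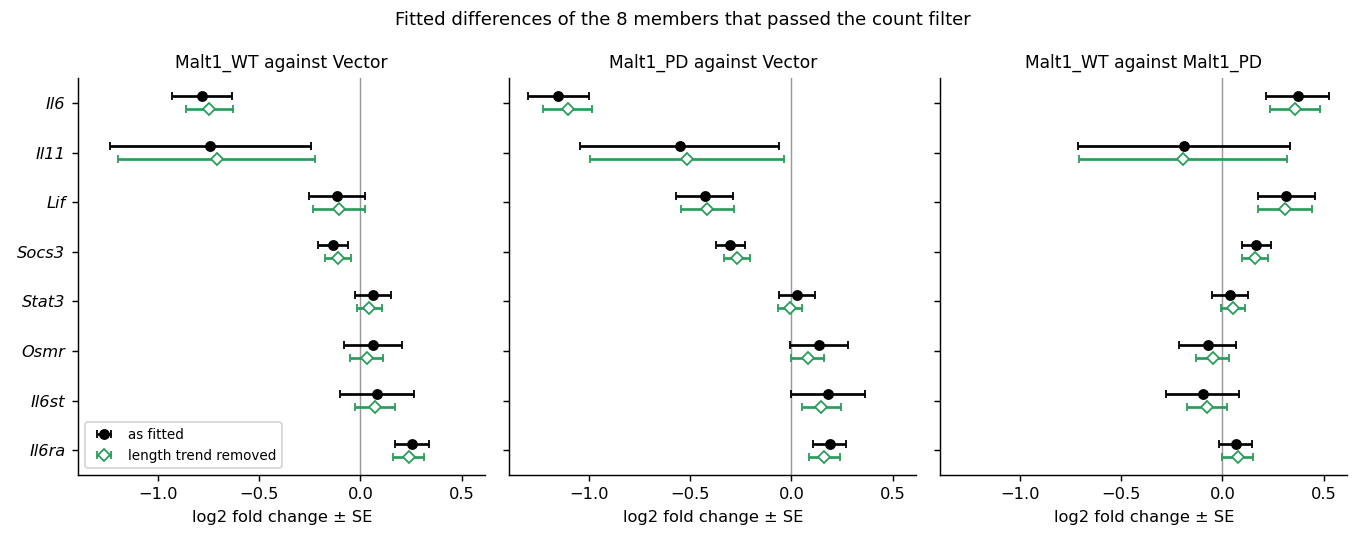
Log2 fold changes with SE of the 8 members in the 3 pairwise comparisons, as fitted (filled circles) and with the length trend removed (open diamonds). Il6 lies farthest below 0 in Malt1_PD against Vector, at -1.15 as fitted and -1.10 with the trend removed, and Il11 has the widest error.

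Per gene length, the members spanned a wide range of levels. As means over the 6 libraries in RPKM (CPM per kilobase of gene length), Socs3 stood highest at 87.6 ± 8.18 (SD, n = 6), a level at or above that of 96.5% of the genes tested, followed by Stat3 at 34.5 ± 1.77, Il6st at 12.3 ± 1.82, Il6 at 9.52 ± 3.76, Il6ra at 7.76 ± 0.637, Osmr at 6.08 ± 0.669, Lif at 4.66 ± 0.714, Il11 at 0.647 ± 0.251 and Lifr at 0.00885 ± 0.00919. The ranges of Il6st and Il6, of Il6 and Il6ra, and of Osmr and Lif overlapped across the 6 libraries, and the other neighbours did not overlap. These ranges and SDs include the differences between the groups. Il6 moved within this order: in Vector it stood at 15.5 and 12.6 RPKM, above Il6ra at 6.83 and 7.14, and in Malt1_PD at 5.86 and 6.78 RPKM, below Il6ra at 8.01 and 7.91. The cells thus held mRNA for gp130 and for the IL-6 and oncostatin M chains at several RPKM, and almost none for the LIF chain.

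**Figure D4:**
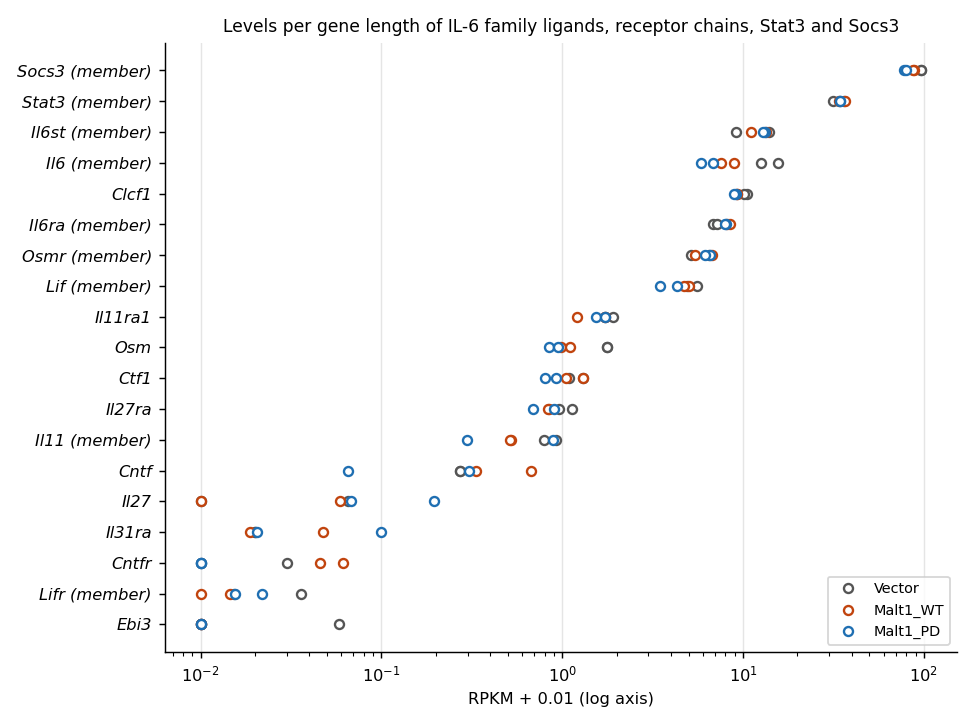
RPKM plus 0.01 on a log axis for the 9 members and 10 other family ligand and receptor genes with a row, 1 point per library coloured by group. Socs3 and Stat3 are highest, Lifr lies near the bottom at 0 to 0.0260 RPKM, and Il6 and Osm are highest in the Vector libraries.

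The rest of the family was read from a list of 8 further ligand genes and 4 further receptor chains. Of the ligands 7 had a row and 4 passed the filter, Osm, Clcf1 and Ctf1 among them, and Cntf, Il27 and Ebi3 had at most 10, 3 and 1 counts in a library. None of the 4 was called by edgeR in any comparison. Their log2 fold changes were below 0 for 4 of 4 in both forms against Vector. The median was -0.18 in Malt1_WT and -0.37 in Malt1_PD, beside -0.001 over all genes tested in both. Osm, the gene of oncostatin M and the nearest protein-coding neighbour of Lif, 16530 nt away, had 71 and 71 counts in Vector, 31 and 50 in Malt1_WT, and 30 and 36 in Malt1_PD. As CPM this was 3.99 ± 0.0138, 2.35 ± 0.203 and 2.02 ± 0.171 (SD, n = 2 each). Both Vector libraries lay above the other 4, as they did for 10.8% of all genes tested. The log2 fold change of Osm was -0.75 ± 0.24 in Malt1_WT (edgeR, Benjamini-Hochberg adjusted p = 0.562) and -0.98 ± 0.24 in Malt1_PD (adjusted p = 0.346). Clcf1, which encodes a ligand of the CNTF receptor, was the highest of the 4 at 9.52 RPKM, close to Il6. Ctf1, the gene of cardiotrophin-1, had a log2 fold change of -0.47 ± 0.30 in Malt1_PD. Of the receptor chains, 2 of 4 passed the filter. Il11ra1, the IL-11 binding chain, had log2 fold changes of -0.31 ± 0.21 and -0.15 ± 0.20, and Il27ra of -0.32 ± 0.25 and -0.41 ± 0.25, in Malt1_WT and Malt1_PD against Vector.

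Summed myeloid markers were higher in Vector, as Il6 and Osm were, and are given beside them, although edgeR called 0 of these markers. The 8 listed markers summed to 43.6 and 37.0 CPM in Vector, 29.2 and 29.9 CPM in Malt1_WT, then 28.5 and 31.7 CPM in Malt1_PD. Most of that came from S100a8, Cd14, Cd68 and Lyz2, while the defining markers Adgre1 (0 to 2 counts), Itgam (0 to 7), Csf1r (2 to 9) and S100a9 (0 to 1) were at or near 0 in every library. The part of S100a8, Cd14, Cd68 and Lyz2 in these results was not tested.

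The signal proteins downstream of the receptors differed little. All 8 Janus kinases, adaptors and other signal genes passed the filter and 0 were called by edgeR in any comparison, with medians of -0.01 in Malt1_WT and -0.04 in Malt1_PD against Vector. The kinase gene Tyk2 stood at 0.24 ± 0.12 and 0.16 ± 0.12 on the log2 scale, and Ptpn11, which encodes the phosphatase SHP2, at 0.14 ± 0.09 in Malt1_WT. Of 7 further inhibitors 6 had a row and 5 passed the filter, with medians of -0.10 and -0.07. Ptpn2, which encodes a phosphatase of Janus kinases and STATs, stood at 107 and 93.2 CPM in Vector against 81.6 and 78.8 CPM in Malt1_WT, then 84.3 and 82.2 CPM in Malt1_PD, without overlap (log2 fold changes of -0.32 ± 0.09 and -0.27 ± 0.09). Socs1 was at -0.17 ± 0.14 in Malt1_WT and Pias3 at 0.12 ± 0.13 in Malt1_PD. Adam10 and Adam17, whose proteases shed receptor chains, lay between -0.01 and 0.05 in both forms.

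Genes known as STAT3 targets went both ways. Of 29 listed, 28 had a row and 26 passed the filter, with 13 above and 13 below 0 in Malt1_WT and 8 above and 18 below in Malt1_PD (medians -0.04 and -0.09, beside 0.00 over all genes), and edgeR called 0. Cebpd, an acute-phase transcription factor gene, stood at 68.9 and 58.0 CPM in Vector, 47.1 and 41.1 CPM with the wild-type form and 43.6 and 44.4 CPM with the PD form, with log2 fold changes of -0.53 ± 0.11 in both. Lbp, which encodes a lipopolysaccharide-binding acute-phase protein, went the other way, at 5.12 and 4.99 CPM in Vector, 11.7 and 9.47 CPM in Malt1_WT, then 10.1 and 7.67 CPM in Malt1_PD, with log2 fold changes of 1.06 ± 0.20 and 0.81 ± 0.20. In both genes the Vector libraries lay outside the range of the other 4. Steap4, a metalloreductase gene, stood at 0.67 ± 0.23 in Malt1_PD, and the mucin gene Muc1, at 7 to 19 counts a library, at 0.64 ± 0.50 in Malt1_WT.

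The regulators of Il6 transcripts were all measured. Of these 12 genes 12 passed the filter, 0 were called by edgeR, and their medians were -0.05 in Malt1_WT and -0.10 in Malt1_PD. Arid5a, whose product stabilises Il6 mRNA, stood at 21.0 and 22.7 CPM in Vector, 16.4 and 14.6 CPM in Malt1_WT, then 15.2 and 16.5 CPM in Malt1_PD, without overlap, with log2 fold changes of -0.50 ± 0.12 and -0.46 ± 0.12. Zfp36, whose product tristetraprolin promotes decay of such mRNAs, stood at 22.5 and 19.3 CPM, 18.0 and 20.0 CPM, and 13.8 and 15.7 CPM, and was at -0.50 ± 0.14 in Malt1_PD. Rel, an NF-kB subunit gene, was at -0.25 ± 0.13 in Malt1_WT and -0.37 ± 0.13 in Malt1_PD. Zc3h12a, the gene of Regnase-1, stood at 98.7, 107 and 104 CPM as group means in Vector, Malt1_WT and Malt1_PD. Zc3h12a was chosen for mention after its values were seen.

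**Figure D5:**
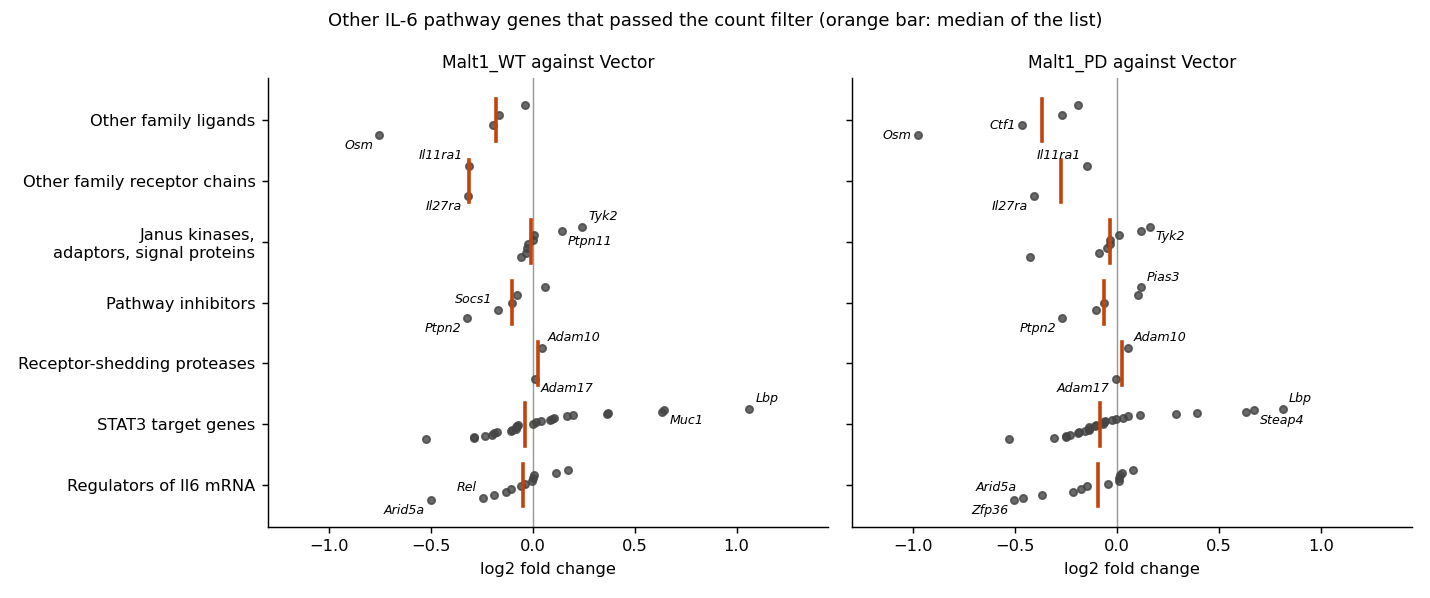
Log2 fold changes of the 59 other pathway genes that passed the filter, by list, in Malt1_WT and in Malt1_PD against Vector, with up to 2 of the farthest genes of each list named and the list median as an orange bar (Cebpd, the leftmost STAT3 target, is not named there). Osm lies farthest to the left in both and Lbp farthest to the right, and the medians lie between -0.37 and 0.03.

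Genes with a mean of at least 1 and a range of at least 1 in log2 CPM were compared with Il6. Predicted symbols (Gm and Rik) and Il6 itself were left out, which left 305 genes. The 5 whose values over the 6 libraries were most like those of Il6 were Fabp4 (Pearson r = 0.976), Misp (0.974), Galnt3 (0.974), Il24 (0.968) and Odaph (0.963). These correlations describe 6 libraries that share the group order and carry no p. Fabp4, which encodes a fatty acid binding protein, stood at 264 and 201 CPM in Vector, 161 and 134 CPM in Malt1_WT, then 130 and 126 CPM in Malt1_PD. Il24, a cytokine gene of the IL-10 family, stood at 3.72 and 3.42 CPM, 2.06 and 1.40 CPM, and 1.01 and 1.66 CPM in the same order. In both genes the Vector libraries were the highest, an outcome that choosing genes by likeness to Il6 favours.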

How the data were processed

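For each of the 6 total RNA libraries the authors deposited raw counts by gene, as whole numbers. The submitters' processing notes list Trim Galore 0.6.0, STAR 2.7.3a, featureCounts 1.6.3 and build GRCm38.p6. Strand setting and annotation version: not given in the sources used here. The 6 log2 RPKM columns in the same table were not used here. The fit was by edgeR 4.0.16 under R 4.3.3 (filterByExpr by group, 14675 genes, TMM, glmQLFit and glmQLFTest, a mean per group, 3 residual degrees of freedom), adjusted by Benjamini-Hochberg over all genes tested. Each SE is the log2 fold change divided by the root of F. Calls by edgeR are from the fit described here unless another setting is named. CPM and RPKM used TMM factors and the deposited gene lengths. The length trend was a lowess curve (span 0.3) per library, used as an offset. DESeq2 1.42.0 and limma-voom (limma 3.58.1) were alternatives. The fits were tested on simulated counts. Coordinates are from GENCODE M21 (GRCm38) and promoters, found for all 9 members, from RefSeq (GRCm38.p6). The members and lists were chosen with earlier results of these data known. Every member is named, as are the 2 genes with the largest fitted change in each other list and comparison (not all are printed) and the 5 genes most like Il6 in log2 CPM (prior count 2). Some genes of the lists are not reported by name here.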

Additional observations from a re-analysis of the deposited data

How the results depend on the processing

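All alternatives were set with earlier results known. Il6 stayed below 0 against Vector in every alternative fit, between -0.92 and -0.62 in Malt1_WT and between -1.29 and -0.99 in Malt1_PD. Members called, 0 in all 4 comparisons, became 1 each in Malt1_WT, Malt1_PD and the pooled forms against Vector with DESeq2, with the length trend removed or without the low-count filter, Il6 in each case. Other pathway genes called in these 3 comparisons, also 0, became 1, 1 and 3 with DESeq2, and 1, 2 and 4 with the length trend removed. Without the filter they became 2, 4 and 6, where 0.403%, 0.67% and 0.909% of all genes were called. DESeq2 called Lbp in Malt1_WT, Hp in Malt1_PD, and Cebpd, Hp and Lbp in the pooled forms. With the length trend removed, Hp was called in all 3, Ccl2 in Malt1_PD and the pooled forms, and Cebpd and Lbp in the pooled forms. The replicate numbers are not stated to pair the libraries (correlation of deviations 0.68 for Vector with Malt1_WT, -0.01 and 0.03 for the other pairs of groups). With the replicate number as a block, members called were 0 in Malt1_WT, 1 in Malt1_PD and 1 in the pooled forms, and other pathway genes 0, 0 and 2. With the block and the length trend removed, members called were 1, 2 and 1, and other pathway genes 4, 5 and 7. Without Vector replicate 1 and Malt1_WT replicate 1 together, fits that take their spread from the Malt1_PD pair alone, members called were 2, 2 and 3 and other pathway genes 10, 17 and 16, and in Malt1_WT against Malt1_PD 1 (Socs3) and 4, but 6.15%, 13.7%, 11.5% and 2.35% of all genes were called as well. Leaving out each library leaves 1 library in a group, so effect sizes alone are given for these fits. In the pooled forms against Vector, Il6 stood at -0.80 without Vector replicate 1 and at -1.11 without Vector replicate 2. The number of members called differed between these fits. The cause of these changes was not tested. Against Vector, log2 fold changes that edgeR left uncalled in the fit of all libraries without corrections also turned sign in some alternatives. Over all alternatives Il6st ran from -0.19 to 0.43 in Malt1_WT and from -0.09 to 0.52 in Malt1_PD, with the upper ends from the fit without Vector replicate 2. Osmr ran from -0.10 to 0.25 and -0.03 to 0.32, Stat3 from -0.03 to 0.17 and -0.07 to 0.13, and Il11 in Malt1_PD from -1.56 to 0.05. Between the forms, uncalled log2 fold changes turned sign for Il11 (0.028 with limma-voom, and -0.79 to 0.82 over the fits without 1 library), Il6st (-0.24 to 0.028), Osmr (-0.24 to 0.071) and Stat3 (-0.018 to 0.086). Without both replicates 1, Il6st stood at 0.0284 and Osmr at 0.0721. With 10 to 34 counts of Il11 and 0 to 5 of Lifr, depth limits what can be said of these genes.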

Other observations

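Other acute-phase and inflammatory genes of the STAT3 target list, chosen for mention after their values were seen, lay in both directions. Haptoglobin (Hp) stood at 137 ± 20.9 CPM in Vector, 177 ± 12.9 CPM in Malt1_WT and 213 ± 1.55 CPM in Malt1_PD (SD, n = 2 each), with log2 fold changes of 0.37 ± 0.11 and 0.63 ± 0.11 (SE) against Vector. Saa3, a serum amyloid gene, stood at 338 ± 82.3, 379 ± 46.7 and 443 ± 3.29 CPM, with 0.17 ± 0.16 and 0.39 ± 0.16, and the Vector and Malt1_WT libraries overlapped. Ccl2, a monocyte chemokine gene, stood at 539 ± 83.0, 441 ± 45.9 and 434 ± 3.34 CPM, with -0.29 ± 0.12 and -0.31 ± 0.12. Lcn2, which encodes lipocalin-2, an acute-phase protein, was at -0.24 ± 0.08 and -0.14 ± 0.08, without overlap with Vector in either form. None was called by edgeR in the fit without corrections. With the length trend removed it called Hp in both forms against Vector and Ccl2 in Malt1_PD, beside 0.375% and 0.593% of all genes. With the replicate block as well it called Hp and Ccl2 in both forms and Saa3 in Malt1_PD, beside 1.11% and 1.55%.

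Family genes lie next to each other in 4 places of the mouse genome (GENCODE M21), with 0 protein-coding genes between them: Lif and Osm, 16530 nt apart, Lifr and Osmr, 215644 nt apart, Il6st and Il31ra, 9811 nt apart, and Il11ra1 and Cntfr, 2899 nt apart. Levels within these pairs were unlike: Osmr had 918 to 1629 counts a library and Lifr 0 to 5, and Il6st had 1727 to 2969 and Il31ra 1 to 8.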
